A study of Mus musculus with 38 samples.

Results

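Gene expression of male mice was set against that of females, none of them stressed, in the adBNST, where BNST stands for bed nucleus of the stria terminalis and ad for its anterodorsal part, across genes on chromosomes 1 to 19. The comparison took the 10 libraries labelled male control and the 10 labelled female control, 20 of the 38 libraries of the series. All mice were wild type (genotype WT), and the control groups differed from each other in sex alone as far as the labels go, which give neither age nor strain. The other 18 libraries came from 9 males and 9 females labelled stressed, which went through 6 weeks of chronic variable mild stress, a randomised schedule of light, bedding, cold, swim, restraint and isolation stressors. They were used here only to share the estimate of spread and to set the control values beside those of other libraries of the same sex. Each library was poly-A selected RNA of a microdissected adBNST, and since separate animals are not named in the labels, p-values measure the spread between libraries.

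The bed nucleus of the stria terminalis is a small basal forebrain region of mostly GABAergic neurons that connects the amygdala with the hypothalamus and brainstem, and it takes part in anxiety, social behaviour and control of the stress axis. It is among the forebrain regions known to differ between the sexes in rodents. Its neurons carry receptors for gonadal steroids, and aromatase, the enzyme that makes estradiol from testosterone, works in some of them. Gonadal hormones shape these neurons during development and act on them in adulthood, while corticosterone from the adrenal gland acts through the glucocorticoid receptor in nearly every cell type of the tissue.

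The labels held in every control library: the X-inactivation transcript Xist lay between 305.9 and 2118 CPM (counts scaled to a common library size) in females and at most 0.927 in males, and the Y-linked helicase gene Ddx3y lay between 39.6 and 139.8 CPM in males and at most 0.0547 in females. Library totals were 18.1 to 33.8 M counts for control females and 9.1 to 84.8 M for control males, so that 1 count was worth 0.0116 to 0.115 CPM. Female control libraries 1 and 6 and male control library 3 stood apart, as did stressed female libraries 1 and 2. Their levels of myelin or striatal genes were high, though some other libraries had such levels too. In ribosomal protein and oxidative phosphorylation genes those control libraries were the highest of all control libraries. Those stressed libraries were likewise the highest of all stressed libraries. In both sexes, the libraries with numbers up to 5 also stood off from the rest, for a reason the labels do not give, and values within each number set are given beside several results.

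Few autosomal genes separated the sexes in control mice. Of 15685 autosomal genes tested, 2 were higher in males at an adjusted p under 0.05 (0.0128% of genes; edgeR's quasi-likelihood test, Benjamini-Hochberg adjustment). They were Cckar, the type A receptor for the gut and brain peptide cholecystokinin, and Hcrtr1, the type 1 receptor for the wake-promoting orexin peptides. None was lower in males by that test, against 331 genes higher (2.11%) and 309 lower (1.97%) at an unadjusted p under 0.05. DESeq2 called 6 higher and 5 lower, and limma voom called 10 higher and 8 lower. The median difference over all autosomal genes was 0.00117 on the log2 scale, 50.3% of genes lay above 0, and 54 genes differed by 2-fold or more in fitted level. No autosomal gene had all 10 male libraries above or below all 10 female libraries, a pattern that the X-linked synaptotagmin-like gene Sytl4 did show. At least 8 of 10 males lay above every female in 9 autosomal genes (0.0574%) and below every female in 3 (0.0191%). In bulk tissue, fewer cells of a type and less RNA per cell cannot be told apart.

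Cckar (chr5:53698485-53707704, GRCm38.p6, minus strand) had a lowest, median and highest level of 1.16, 2.06 and 3.53 CPM in control females. The corresponding levels in control males were 3.25, 6.41 and 15.5 CPM. In 9 of the 10 males the level was above every female, the exception being male library 4, and male library 9 held the highest. Group means were 2.21 ± 0.912 CPM in females and 7.14 ± 3.43 CPM in males (SD, n = 10 each), a fitted 3.23-fold difference, 1.69 ± 0.26 on the log2 scale (± SE), with an adjusted p of 0.00027 in edgeR. The difference was 1.90 within libraries 1 to 5 and 1.56 within libraries 6 and above, where it did not pass (adjusted p = 0.0637 in edgeR). Leaving out each control library in turn gave values from 1.49 to 1.80, and Cckar passed each time.

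Hcrtr1 (chr4:130130217-130139594, minus strand) had levels of 1.53, 2.15 and 4.16 CPM in females as lowest, median and highest. In males these were 2.34, 5.42 and 12.6 CPM. Again male library 4 was the lowest male and library 9 the highest, 8 of 10 males lay above every female, and 6 of 10 females lay below every male. The fitted difference was 1.34 ± 0.26 on the log2 scale, with an adjusted p of 0.0164 in edgeR. The call was less secure than that of Cckar. Its adjusted p rose to 0.0528 without female library 2, to 0.0553 without male library 8, to 0.0883 without male library 9, to 0.096 without the 5 libraries that stood apart, and to 0.0786 when adjusted over autosomal genes only. Within libraries 1 to 5 the difference was 1.19 (adjusted p = 1.0 in edgeR) and within libraries 6 and above 1.42 (0.0975). The size of the difference stayed between 1.15 and 1.46 across the fits that left out a control library.

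The promoters of the genes that led either direction were searched for the core motif bound by estrogen receptors (GGTCA, on either strand, whole motif inside the window). Windows ran from 250 bases before to 50 after an annotated start (RefSeq, GRCm38.p6), and 6 of the 10 leading genes named in the paragraphs on either direction had 1 or more. The motif stood in at least 1 window of all 6 genes and in 7 of their 10 windows, on the male-leading and on the female-leading side alike, and in 40.5% of 32851 windows of all genes. The full estrogen response element, an inverted repeat of that core with a spacer of 3 bases, stood in 0 of the 10 and in 0.07% of all windows. An inverted repeat with a spacer of 2 bases, searched for after the windows had been seen, stood in 1 of the 10, that of Fmo2, and in 0.0974% of all windows. The 3 windows without the core motif were 2 of Hcrtr1 and 1 of Fmo2. Below, 1 window that holds the motif is shown for each of the 6 genes, which lead the sex comparison, with each core motif in capitals.
Hcrtr1 chr4:130139113-130139412 (minus strand): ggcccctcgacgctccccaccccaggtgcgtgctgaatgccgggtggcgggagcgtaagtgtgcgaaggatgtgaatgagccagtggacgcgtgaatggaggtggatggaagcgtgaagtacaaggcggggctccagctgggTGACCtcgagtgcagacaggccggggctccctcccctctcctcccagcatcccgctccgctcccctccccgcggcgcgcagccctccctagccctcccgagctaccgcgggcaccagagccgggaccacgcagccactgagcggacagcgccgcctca
Greb1 chr12:16800837-16801136 (minus strand): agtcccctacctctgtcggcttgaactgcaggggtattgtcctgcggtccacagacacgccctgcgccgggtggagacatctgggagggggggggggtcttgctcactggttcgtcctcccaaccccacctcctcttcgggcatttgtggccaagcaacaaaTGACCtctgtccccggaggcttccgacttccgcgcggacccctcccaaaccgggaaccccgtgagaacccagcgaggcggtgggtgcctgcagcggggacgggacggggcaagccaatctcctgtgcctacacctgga
Gal chr19:3414495-3414794 (minus strand): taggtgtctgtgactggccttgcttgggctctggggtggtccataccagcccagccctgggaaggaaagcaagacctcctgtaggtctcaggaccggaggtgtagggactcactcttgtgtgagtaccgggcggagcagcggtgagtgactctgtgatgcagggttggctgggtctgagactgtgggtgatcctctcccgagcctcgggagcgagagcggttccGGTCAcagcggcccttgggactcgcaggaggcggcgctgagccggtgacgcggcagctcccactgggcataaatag
Fmo2 chr1:162898444-162898743 (minus strand): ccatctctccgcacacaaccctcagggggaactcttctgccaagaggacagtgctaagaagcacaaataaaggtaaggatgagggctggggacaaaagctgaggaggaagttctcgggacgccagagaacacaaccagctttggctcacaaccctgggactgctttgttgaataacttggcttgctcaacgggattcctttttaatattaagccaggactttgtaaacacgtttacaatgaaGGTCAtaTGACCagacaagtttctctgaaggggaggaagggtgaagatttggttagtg
Mertk chr2:128698665-128698964 (plus strand): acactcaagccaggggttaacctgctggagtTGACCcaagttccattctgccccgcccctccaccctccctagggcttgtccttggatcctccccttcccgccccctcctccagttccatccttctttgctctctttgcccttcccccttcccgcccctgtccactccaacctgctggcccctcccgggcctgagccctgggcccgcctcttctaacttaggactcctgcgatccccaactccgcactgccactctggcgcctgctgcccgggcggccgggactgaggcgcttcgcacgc
Plin4 chr17:56109733-56110032 (minus strand): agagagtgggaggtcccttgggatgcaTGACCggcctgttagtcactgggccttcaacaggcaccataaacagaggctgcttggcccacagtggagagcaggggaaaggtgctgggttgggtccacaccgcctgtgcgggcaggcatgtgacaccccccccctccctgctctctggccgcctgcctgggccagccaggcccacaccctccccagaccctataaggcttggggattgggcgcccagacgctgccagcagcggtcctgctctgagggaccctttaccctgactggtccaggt
In the Hcrtr1 window the motif begins at -108 from the start site, in that of Greb1 at -88, in that of Gal at -26, in that of Mertk at -219 and in that of Plin4 at -223. The Fmo2 window holds it on both strands, at -8 and -1, which makes up the inverted repeat with a spacer of 2 bases. A motif match describes the letters only, and binding was not measured.

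Greb1, an estrogen-induced gene named for its role in breast cancer cells, followed Hcrtr1 on the male side. It lies at chr12:16670615-16801394 (minus strand). Female levels were 1.4, 5.09 and 19.5 CPM as lowest, median and highest, and male levels were 11.9, 24.0 and 54.1 CPM. In 7 of 10 males the level was above every female, and the other 3 overlapped with female libraries 7 and 10, at 16.8 and 19.5 CPM. The difference of 1.81 ± 0.39 on the log2 scale had an adjusted p of 0.0516 in edgeR and passed in DESeq2 (adjusted p = 0.00742) and voom (0.00128). Leaving out each control library gave an adjusted p from 0.00687 to 0.164 in edgeR, the highest without male library 9. Of the 50-base words in its transcripts, 5.73% also occur in other genes, so a small part of its reads could be assigned ambiguously.

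Gal encodes galanin, an inhibitory neuropeptide, and Htr3a encodes the subunit that forms the serotonin-gated ion channel. Gal (chr19:3409915-3414544) had female levels of 4.69, 6.78 and 9.56 CPM and male levels of 4.9, 11.9 and 23.6 CPM. Male library 4 sat among the lowest females, while 7 of 10 males lay above every female. Its difference was 0.97 ± 0.22 with an adjusted p of 0.0673 in edgeR, 0.00812 in DESeq2 and 0.0254 in voom. In edgeR that p became 0.00973 without male library 4 and 0.041 without female library 10, against 0.297 without male library 9, the highest male, and 0.338 without the 5 libraries that stood apart. Htr3a (chr9:48899213-48911152) had female levels of 1.46, 2.35 and 3.42 CPM and male levels of 2.25, 4.47 and 10.9 CPM. Its difference was 1.06 ± 0.26 (adjusted p = 0.145 in edgeR, 0.027 in DESeq2 and 0.0178 in voom), with 8 of 10 males above every female. Male library 9 was the highest of all 20 for Cckar, Hcrtr1, Greb1, Gal and Htr3a.

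**Figure D1:**
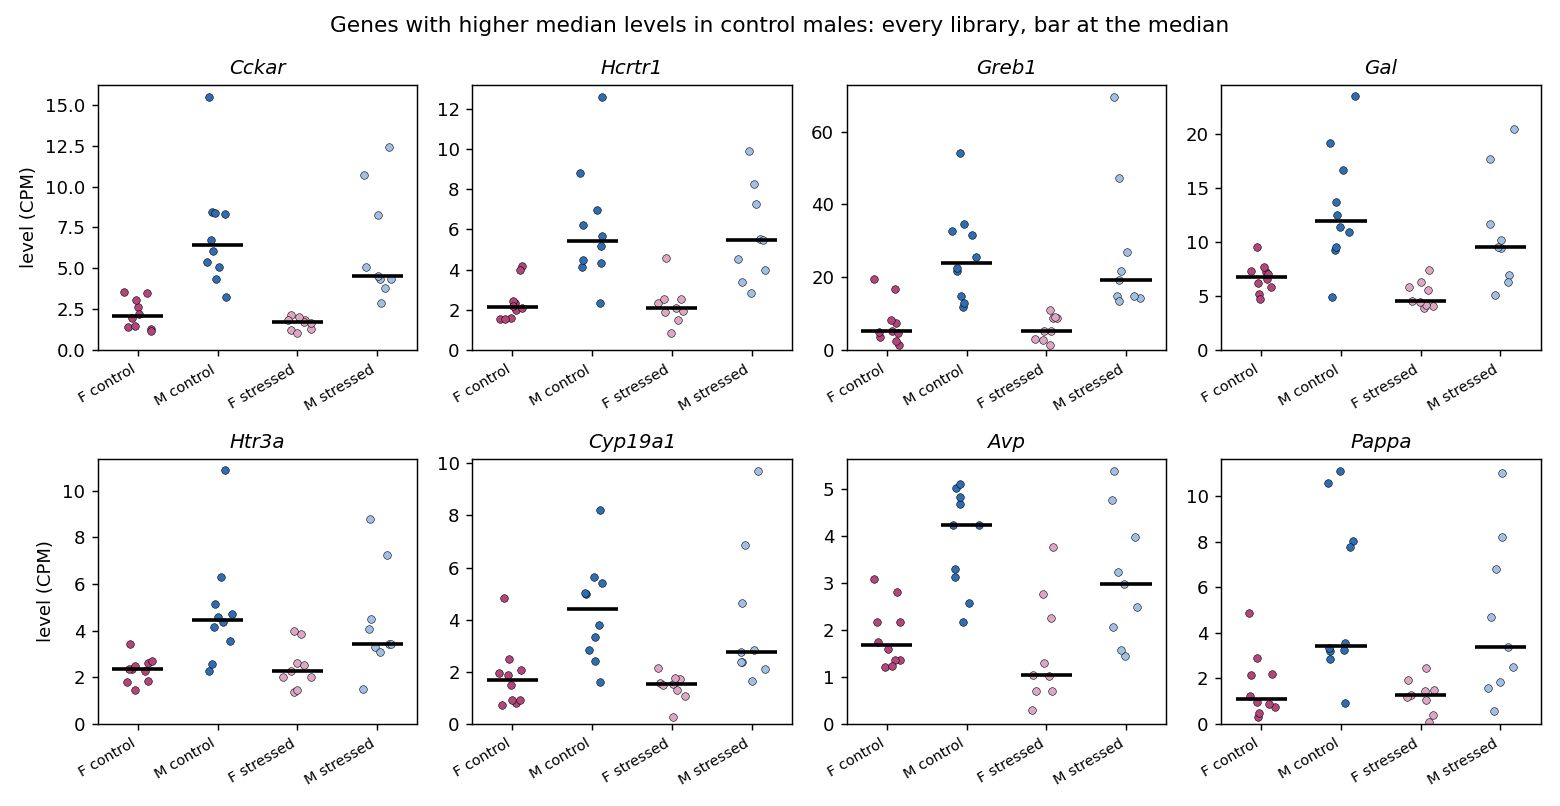
Level in CPM (y axis) of 8 genes with higher median levels in control males, for every library of the 4 groups (x axis), where F is female, M is male and each bar is the group median. For Cckar the control females sit between 1.16 and 3.53 CPM and the control males between 3.25 and 15.5, and the stressed medians have the same order.

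Aromatase and vasopressin, textbook markers of male-biased neurons in this nucleus, showed the same ordering and passed in voom alone among the 3 tools. Cyp19a1, which encodes aromatase, had female levels of 0.713, 1.68 and 4.83 CPM and male levels of 1.6, 4.4 and 8.23 CPM. Its difference was 1.28 ± 0.34 with an adjusted p of 0.293 in edgeR, 0.0823 in DESeq2 and 0.0133 in voom. In edgeR it fell to 0.0354 without female library 10, the female with the highest level, and rose to 0.686 without male library 9. Avp, which encodes vasopressin, had female levels of 1.2, 1.67 and 3.08 CPM and male levels of 2.16, 4.24 and 5.12 CPM, with 8 of 10 males above every female. Its difference was 1.08 ± 0.30 (adjusted p = 0.344 in edgeR, 0.102 in DESeq2 and 0.011 in voom), and it passed in edgeR when only the 20 control libraries were fitted (adjusted p = 0.0432). In that edgeR fit Cckar (0.00337) and Hcrtr1 (0.0432) also passed. Cyp19a1 (0.49), Greb1 (0.11), Gal (0.107) and Htr3a (0.149) did not. Neither did the leading female-side genes described below: Xdh (0.223), Fmo2 (0.0907), Mertk (0.591), Zbtb16 (0.445) and Plin4 (0.653).

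The estrogen and progesterone receptor genes did not show such an ordering. Esr1, which encodes estrogen receptor alpha, had female levels of 2.54, 18.4 and 40.7 CPM and male levels of 7.48, 13.7 and 19.5 CPM. Esr2, for estrogen receptor beta, ranged from 0.2 to 11.1 CPM in females and from 1.6 to 11 in males. Female library 6 was lowest and female library 10 highest in both genes, so the spread among females exceeded the difference between the sexes. The differences were -0.41 ± 0.26 for Esr1 and 0.25 ± 0.44 for Esr2. The progesterone receptor gene Pgr stood at 0.21 ± 0.16. Adjusted p was 1 for all 3 in edgeR.

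A list of genes known to respond to gonadal steroids or to differ between the sexes in the forebrain had 23 autosomal members tested. Cckar was the member that passed in edgeR (0.0128% of all autosomal genes did), DESeq2 also called Greb1 and Gal, and voom called these and Avp. Of the 23, 22 lay above 0, against 50.3% of all autosomal genes. The median difference was 0.25, against 0.00117 for all genes. The list was drawn up with results of these libraries known, so its direction is not independent evidence. Besides Cckar, Greb1, Gal and Avp, the members at an unadjusted p under 0.05 were Moxd1 (0.52), a monooxygenase-like marker of dimorphic preoptic and BNST neurons, Cartpt (0.42), the precursor of CART peptides, Chodl (0.41), a membrane lectin, and Kiss1, the kisspeptin gene, which was at the limit of detection. Of all autosomal genes, 2.11% were higher in males at such a p. Nnat, a neuronal membrane protein gene, was the list member below 0, at -0.08. The list median was 0.33 within libraries 1 to 5, 0.24 within libraries 6 and above, and 0.21 to 0.34 when each control library was left out. Of 11 markers of the neighbouring hypothalamus and preoptic area, which include Gal, Avp and Kiss1, 7 lay above 0, and their summed level ran from 47.6 to 84.3 CPM in females and 49.2 to 94.2 in males, with the lower median in males (62.9 against 66.9). Their mean log2 level per library, centred on all libraries and weighting each marker equally, had the higher median in males instead (0.29 against -0.29). The part of these markers in the result was not tested.

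A further 2 genes, chosen after their values were seen, were among the male-side genes at an unadjusted p under 0.001. Pappa, a protease that frees insulin-like growth factor from its binding proteins, ranged from 0.299 to 4.86 CPM in females and from 0.925 to 11.1 in males, with a difference of 1.70 ± 0.47. Eif2b3, a subunit of the exchange factor that recycles the translation initiator eIF2, ranged from 9.04 to 13.0 CPM in females and 11.6 to 17.8 in males, a difference of 0.38 ± 0.10. Their adjusted p-values in edgeR were 0.334 and 0.223.

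On the female side no gene passed in edgeR. The leading 5 were all called by DESeq2, and 3 of them, Xdh, Fmo2 and Mertk, also by voom. Xdh (chr17:73883895-73950397) encodes xanthine dehydrogenase, which makes uric acid from purines. Its levels in females were 4.32, 9.99 and 20.8 CPM as lowest, median and highest, and in males 2.01, 4.85 and 7.69 CPM. Every male lay below the female median, and 6 of 10 females lay above every male. The difference was -1.17 ± 0.25 with an adjusted p of 0.0516 in edgeR, 0.00376 in DESeq2 and 0.011 in voom. In edgeR it passed without female library 1, 3 or 6 or male library 4 or 10 (adjusted p from 0.0181), and without the 5 libraries that stood apart (0.00374). Without female library 7 it was -0.996 (0.183), and without female libraries 7 and 8, chosen after the values were seen, -0.92 (0.523). Of its 50-base words, 9.6% also occur in other genes.

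Fmo2 (chr1:162874317-162898758) encodes a flavin monooxygenase that oxidises drugs and sulfur or nitrogen compounds. Female levels were 1.73, 2.84 and 4.7 CPM, and male levels were 0.727, 1.35 and 2.22 CPM. All but female libraries 5 and 10 lay above every male. Its difference was -1.17 ± 0.26 (adjusted p = 0.0582 in edgeR, 0.00595 in DESeq2 and 0.0254 in voom), and it was larger within libraries 6 and above (-1.58) than within libraries 1 to 5 (-0.74). Mertk (chr2:128698915-128803162) encodes a receptor tyrosine kinase with which astrocytes and microglia take up cell debris. Its levels were 43.1, 50.8 and 70.3 CPM in females and 23.2, 36.2 and 53.8 CPM in males, with 8 of 10 males below every female. The difference of -0.49 ± 0.11 had an adjusted p of 0.0587 in edgeR, 0.00995 in DESeq2 and 0.00137 in voom. In edgeR it was 0.00973 without male library 4, the male with the highest level, and 0.236 without male library 8.

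Zbtb16 and Plin4 had the widest ranges of the 5, and both were highest in female libraries 7 and 8. Zbtb16 (chr9:48651797-48836225), a zinc-finger transcription factor also called PLZF and a classical glucocorticoid target, had female levels of 10.4, 43.8 and 115.7 CPM and male levels of 13.8, 19.4 and 40.0 CPM. Every male lay below the female median, while female library 6, at 10.4 CPM, lay below every male. Its difference was -1.28 ± 0.30 (adjusted p = 0.0926 in edgeR, 0.00812 in DESeq2 and 0.0761 in voom). In edgeR the p was 0.0134 without female library 6 and 0.363 without female library 8, and without female libraries 7 and 8 the difference was -0.83. Plin4 (chr17:56100587-56109948), which coats lipid droplets, had female levels of 2.64, 11.3 and 59.4 CPM and male levels of 2.26, 4.36 and 9.87 CPM. Its difference was -1.64 ± 0.40 (adjusted p = 0.149 in edgeR, 0.0341 in DESeq2 and 0.0543 in voom). Leaving out 1 control library moved it between -1.79 and -1.14, and it was -0.79 without female libraries 7 and 8.

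**Figure D2:**
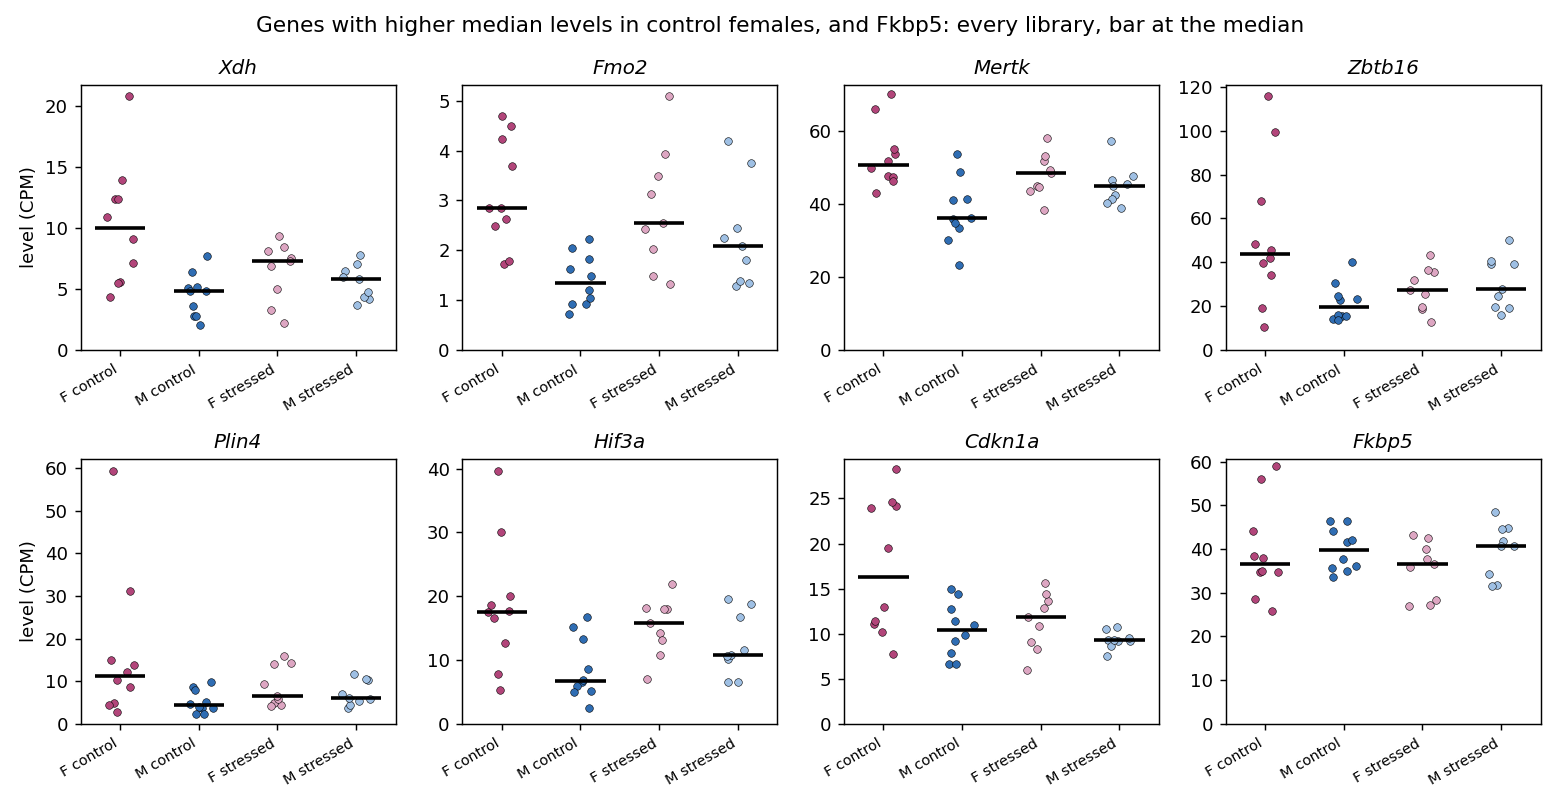
Level in CPM (y axis) of 7 genes with higher median levels in control females and of Fkbp5, for every library of the 4 groups (x axis), with a bar at each group median. In Zbtb16, Plin4, Hif3a and Fkbp5 the 2 highest points are control female libraries 7 and 8, and the control medians of Fkbp5 are 36.5 CPM in females and 39.7 in males.

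Genes known to be induced by glucocorticoids lay below 0 as a group. None of 23 autosomal members tested passed in edgeR, while DESeq2 called Zbtb16 and Plin4 and voom called Hif3a (adjusted p = 0.0441). Of the 23, 21 lay below 0 (49.7% of all autosomal genes did), and the median was -0.33. This list, which holds Zbtb16 and Plin4, was also drawn up with results of these libraries known. Its direction is therefore not independent evidence. Besides Zbtb16 and Plin4, 6 members had an unadjusted p under 0.05: Hif3a (-1.11), an inhibitory relative of the hypoxia factors, Cdkn1a (-0.74), the p21 cell-cycle inhibitor, Sgk1 (-0.72), a corticosteroid-induced kinase, Map3k6 (-0.69), a stress-activated kinase, Pdk4 (-0.48), which restrains pyruvate oxidation, and Sult1a1 (-0.40), a sulfotransferase. Of all autosomal genes, 1.97% were lower in males at such a p. The X-linked target Tsc22d3, which encodes GILZ, stood at -0.59. By contrast Fkbp5, the receptor's inducible co-chaperone, stood at 0.02 ± 0.12, although female libraries 7 and 8 were again the highest, at 56.0 and 59.0 CPM. Per1, a clock gene, stood at -0.01, and Dusp1, a phosphatase, at -0.03. The receptor genes themselves stood at -0.05 ± 0.11 (Nr3c1, glucocorticoid receptor) and 0.01 ± 0.10 (Nr3c2, mineralocorticoid receptor), with adjusted p of 1 in edgeR.

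The glucocorticoid-target values depended on a few libraries. The list's level per library was the median over its members of log2 CPM, each centred on its mean over the 20 control libraries. That level ran from -0.31 to 0.86 in females with a median of 0.24. In males it ran from -0.54 to 0.19 with a median of -0.19. Female libraries 1, 7, 8 and 9 were the highest of the 20, and female libraries 2, 3, 4, 5 and 10 lay within the male range. The list median moved to -0.21 without female library 1 and to -0.16 without the 5 libraries that stood apart, and it was -0.31 without female libraries 7 and 8. Within libraries 1 to 5 it was -0.18 and within libraries 6 and above -0.40. Endothelial markers moved in the same direction: all 13 autosomal markers tested lay below 0 (49.7% of all autosomal genes did), with none called and a median of -0.21. Slc2a1 (the GLUT1 glucose carrier of the blood-brain barrier), Pecam1, Ly6c1, Cdh5 and Tie1 had an unadjusted p under 0.05. Of all autosomal genes, 1.97% were lower at such a p. This list too was chosen with results of these libraries known, so its direction is not independent evidence. The summed level of the endothelial markers was 375.8, 414.3 and 537.6 CPM in females as lowest, median and highest and 254.0, 362.3 and 455.2 CPM in males, and no marker was at 0. Their part in the glucocorticoid-target values was not tested.

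Around the mean of their own sex, the leading genes of one direction varied together from library to library. For each of the 10 leading genes the deviation of log2 CPM from the mean of its own sex was taken in the 20 control libraries, and all 45 pairs were correlated. Both sexes were pooled for this, and r is not given for either sex alone. All 10 pairs within the male-side 5 and all 10 within the female-side 5 were positive, with median Pearson's r of 0.625 and 0.655, whereas the 25 pairs across the sides ran from -0.63 to 0.36 with a median of -0.02. Of the 45, 15 had an adjusted p under 0.05 for Pearson's r, 7 and 7 within the sides and 1 across (100000 permutations of libraries within each sex, two-sided, Benjamini-Hochberg over 45). By Spearman's rho as well, 4 of the 7 male-side pairs and all 7 female-side pairs passed. Within both number sets r was positive in 9 of the 10 male-side pairs, Greb1 and Gal having -0.12 within libraries 1 to 5, and in all 10 female-side pairs. These pairs were not matched against pairs of other genes, and levels measured in the same library share its dissection and depth. Libraries were permuted within each sex across both number sets, so the p-values include any offset between the sets.

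Hcrtr1 and Gal had r = 0.83 (permutation p = 3e-05, adjusted 0.000562) and Spearman's rho = 0.71 (p = 0.00104, adjusted 0.00936). Without the 2 libraries farthest from the median of Hcrtr1 r was 0.65, and it was 0.81 and 0.92 within the lower and the upper number set. Zbtb16 and Plin4 had r = 0.83 (permutation p = 4e-05, adjusted 0.000562) and rho = 0.75 (p = 0.00025, adjusted 0.00562), with r = 0.70 without the 2 farthest libraries and 0.51 and 0.93 within the sets. Both pairs thus kept their sign within each set. Some others rested on few libraries: Cckar and Gal had r = 0.58 (permutation p = 0.00907, adjusted 0.0272; rho = 0.42, permutation p = 0.0727, adjusted 0.182), which became 0.24 without the 2 farthest. The pair across the sides that passed was Gal and Fmo2, with r = -0.63 (permutation p = 0.00309, adjusted 0.0116; rho = -0.62, permutation p = 0.0064, adjusted 0.0262), -0.59 without the 2 farthest, and -0.81 and -0.45 within the sets.

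**Figure D3:**
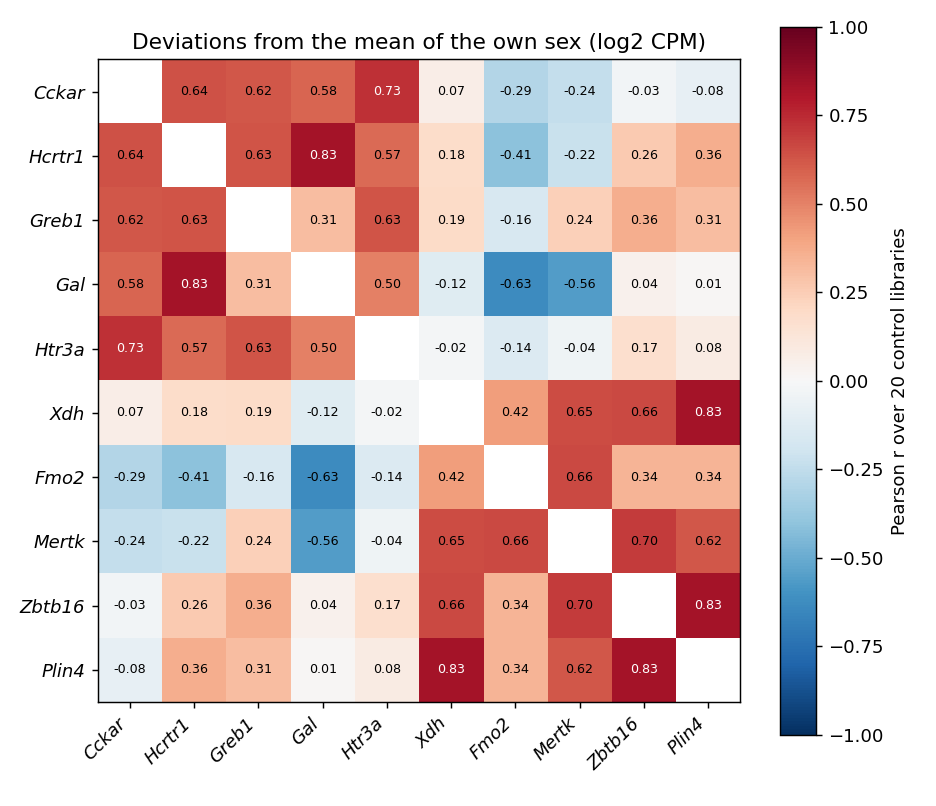
Pearson's r (colour and printed value) between the deviations of 10 genes from the mean of their own sex, over the 20 control libraries, with genes on both axes. The 5 male-side genes (Cckar to Htr3a) and the 5 female-side genes (Xdh to Plin4) form 2 blocks of positive values, and the values between the blocks run from -0.63 to 0.36.

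The stressed libraries share no sample with the control comparison and gave the male-side differences again. Male minus female was 1.94 ± 0.29 for Cckar (adjusted p = 9.18e-05 in edgeR), 1.33 ± 0.28 for Hcrtr1 (0.0358), 2.12 ± 0.42 for Greb1 (0.0164) and 1.08 ± 0.23 for Gal (0.0428). These 4 were among 7 autosomal genes that passed in stressed mice, 0.0446% of those tested. Htr3a (0.86), Cyp19a1 (1.46) and Avp (1.07) again lay on the male side without passing in edgeR. The change of the sex difference with stress was 0.25 ± 0.38 for Cckar, -0.01 ± 0.38 for Hcrtr1, 0.31 ± 0.56 for Greb1 and 0.12 ± 0.31 for Gal, so that for none of the 4 did the change exceed its error.

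Differences of the leading female-side genes were smaller in the stressed libraries. They stood at -0.23 ± 0.26 for Xdh, -0.34 ± 0.26 for Fmo2, -0.09 ± 0.11 for Mertk, 0.13 ± 0.31 for Zbtb16 and -0.30 ± 0.41 for Plin4. The glucocorticoid-target list as a whole had a similar median in stressed mice (-0.30) and control mice (-0.33). In stressed mice 18 of its 23 members lay below 0, and the median of all autosomal genes was -0.0152. The list's level per library had medians closer together there, at -0.051 in stressed females and -0.135 in stressed males. Its highest stressed level, 0.672, was that of stressed female library 2, which stood apart. The change with stress was 1.41 ± 0.43 for Zbtb16 (unadjusted p = 0.00195, adjusted 0.845 in edgeR) and 0.95 ± 0.36 for Xdh (unadjusted p = 0.0132, adjusted 0.845). No autosomal gene passed the test of that change in edgeR, DESeq2 or voom, and 720 genes (4.59%) had an unadjusted p under 0.05, 2.14% with a change upward and 2.45% downward. The lowest p belonged to Mast4, a microtubule-associated kinase picked after its values were seen, at -0.33 ± 0.09 in control and 0.26 ± 0.09 in stressed mice (unadjusted p = 3.15e-05 for the change, adjusted 0.514 in edgeR).

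Among all genes at an unadjusted p under 0.001 in control mice, 16 lay on the male side and 12 on the female side. In the stressed libraries 13 of the 16 kept their sign and 11 had an unadjusted p under 0.05 with that sign, with a median of 1.2 in control and 1.01 in stressed mice. Of the 12, 9 kept their sign and 1 had such a p, with a median of -0.92 in control and -0.25 in stressed mice. Over all autosomal genes the shares keeping their sign were 50.7% for those above 0 and 56.2% for those below, and in the stressed libraries 3.07% of genes were higher and 8.05% lower in males at an unadjusted p under 0.05. The control libraries chose these genes, and so the control medians are a description, and a test of whether the 2 sides differ in this respect was not made.

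**Figure D4:**
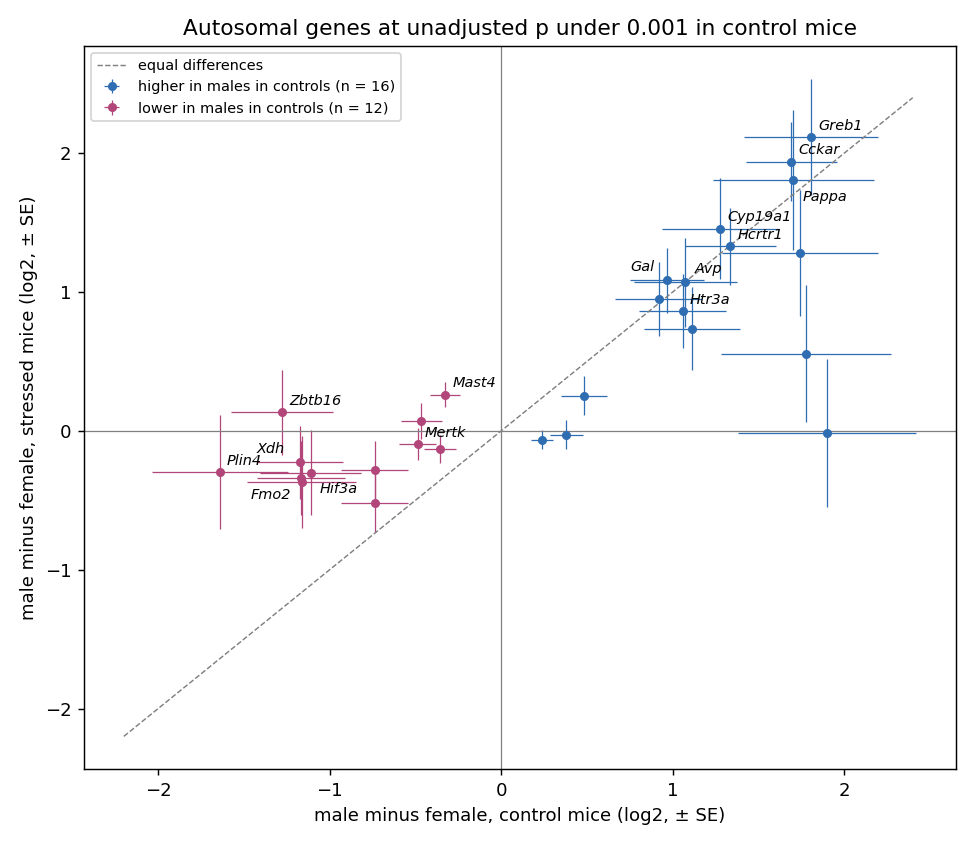
Male minus female difference (log2, ± SE) in stressed mice (y axis) against control mice (x axis) for the 28 autosomal genes at an unadjusted p under 0.001 in control mice, blue for the male side and pink for the female side. Cckar, Greb1 and Hcrtr1 lie near the dashed line of equal differences, while Zbtb16, Plin4 and Xdh lie near 0 on the y axis.

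Neuropeptide and stress-axis genes in a panel of 30 showed no call in edgeR in control mice, whereas DESeq2 called Greb1 and voom called Greb1, Avp and Cyp19a1. Of its 29 autosomal members 7 had an unadjusted p under 0.05, against 4.08% of all genes. The panel was chosen with results of these libraries known, so that share is not independent evidence. All 7 lay on the male side: Greb1, Cyp19a1, Avp, Moxd1 and Cartpt, already described, with Cck and Crhr2. Cck, which encodes cholecystokinin, the ligand of the Cckar product, had female levels of 7.59, 19.9 and 30.3 CPM and male levels of 15.7, 28.3 and 63.5 CPM. Its difference was 0.75 ± 0.26 (adjusted p = 0.79 in edgeR), with male library 9 the highest. Crhr2, the type 2 receptor for corticotropin-releasing factor peptides, stood at 0.46 ± 0.23. Crh, the stress peptide itself, had medians of 23.1 CPM in females and 21.5 in males, a difference of -0.01 ± 0.20. Its main receptor Crhr1 stood at 0.08 ± 0.16.

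The opioid and interneuron peptides varied more within a sex than between the sexes. Penk, for enkephalin, ran from 618.5 to 2239 CPM in females and from 511.5 to 1388 in males, and Sst, for somatostatin, from 191.9 to 703.0 and from 186.0 to 515.6. Female libraries 1 and 6 held the highest levels of Penk, Sst and Npy among the females. The differences were -0.34 ± 0.27 for Penk, -0.25 ± 0.24 for Sst, -0.39 ± 0.27 for Npy (neuropeptide Y) and -0.11 ± 0.10 for Pdyn (dynorphin). Tac1 (substance P) stood at 0.12 ± 0.26, Nts (neurotensin) at 0.10 ± 0.18, Adcyap1 (PACAP) at 0.37 ± 0.36 and its receptor gene Adcyap1r1 at -0.02 ± 0.12. Oxt (oxytocin) stood at -0.26 ± 0.42 and Oxtr, its receptor gene, at 0.18 ± 0.13. Prkcd, the kinase that marks a class of BNST neurons, stood at 0.30 ± 0.33, and the activity gene Fos at 0.08 ± 0.34.

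M-type potassium channel subunits, which damp repetitive firing, also gave no call. Kcnq3 had levels of 147.4, 255.5 and 339.3 CPM in females and 112.1, 212.0 and 424.3 CPM in males, a difference of -0.05 ± 0.19. Kcnq5 had levels of 82.5, 105.6 and 147.6 CPM in females and 60.4, 98.2 and 173.6 CPM in males, a difference of -0.07 ± 0.17. In both the male and female libraries overlapped widely. Of 12 KCNQ, HCN and T-type calcium channel genes 5 lay above 0, with a median of -0.03.

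Among lists of peptides, receptors and cell functions, the calls fell on genes already named. Of 42 autosomal neuropeptide receptor genes tested, 2 passed in edgeR, Cckar and Hcrtr1, which were the only calls among all autosomal genes (0.0128%). Of the 42, 24 lay above 0 and the median was 0.03. Neuropeptide genes had 20 of 38 above 0 and a median of 0.04, with 9 of the 38 higher at an unadjusted p under 0.05, against 2.11% of all genes, and none lower, against 1.97%. Both of these lists were drawn up with results of these libraries known, so their shares and calls are not independent evidence. Gal was called by DESeq2 and voom and Avp by voom. Others of the 9 included Cbln1 (0.95), a synapse organiser, Tac2 (0.51), neurokinin B, and Chgb (0.29), a secretory granule protein. Cholesterol synthesis genes had 18 of 24 above 0 and a median of 0.10, and the stressed median was 0.05. Immediate early genes had 23 of 30 below 0 and a median of -0.10, which was 0.01 and -0.23 within the lower and the upper number set, 0.01 without female library 6 and 0.09 without the 5 libraries that stood apart. Ribosomal protein genes had a median of -0.07, with 0.02 and -0.16 within the sets, 0.06 without female library 6 and 0.10 without the 5 libraries. Oxidative phosphorylation genes had one of -0.02, with 0.003 and -0.06 within the sets, 0.08 without female library 6 and 0.13 without the 5 libraries. The sign of these 3 medians thus changed with the libraries used, and their stressed medians were -0.34, -0.56 and -0.38.

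Markers of cell types and neighbouring regions had no member called in edgeR. BNST neuron markers had 12 of 22 above 0 and a summed level of 3684 to 6145 CPM in females and 3634 to 5026 in males. Microglial markers had 13 of 15 above 0, but their median was 0.58 within libraries 1 to 5 and -0.23 within libraries 6 and above. Ependymal markers had 9 of 12 above 0 with a median of 0.30, which was -0.08 and 0.42 within the sets. Striatal markers had 11 of 12 below 0 with a median of -0.16, which was -0.015 and -0.43 within the sets and became 0.05 without the 5 libraries that stood apart. Astrocyte markers had 11 of 15 below 0 with a median of -0.07, and -0.12 and -0.004 within the sets. Endothelial markers had medians of -0.13 and -0.24 within the sets and a stressed median of 0.07.

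**Figure D5:**
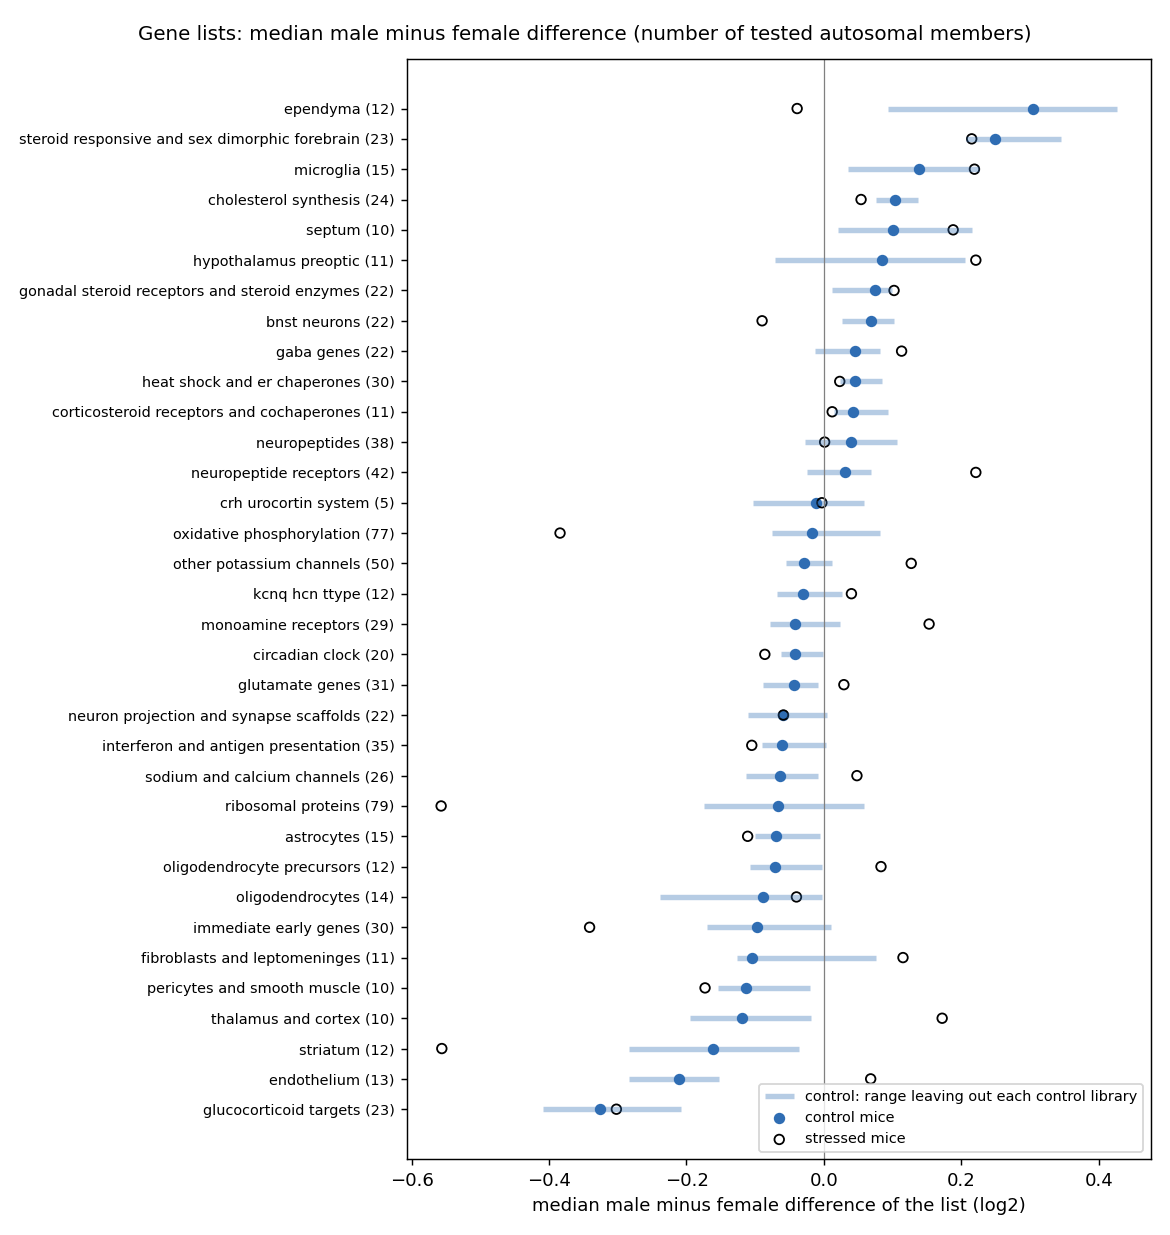
Median male minus female difference (log2, x axis) of the gene lists with tested autosomal members (y axis, with their number), as filled points for control mice, open points for stressed mice, and bars for the range when each control library is left out. The choroid plexus list, with medians of 0.148 in control and 1.974 in stressed mice, is not shown. Glucocorticoid targets (-0.33) and endothelial markers (-0.21) lie lowest in control mice, and ependymal markers (0.30) and steroid-responsive forebrain genes (0.25) highest.

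The median spread among libraries was larger in control males. The gap was wider without the control libraries that stood apart and narrower with the means of the number sets removed. The median SD of log2 CPM per autosomal gene was 0.331 in control females and 0.364 in control males, and 41.6% of genes had the larger SD in females. Without female libraries 1 and 6 and male library 3 the medians were 0.233 and 0.323 and the share was 22.9%. With the mean of each number set removed within each sex they were 0.285 and 0.311, and the share was 44.8%. The genes with the largest excess of spread in females were chosen after their values were seen and included Ebf2 (SD 2.54 against 1.15), a transcription factor, and Adcyap1 (1.52 against 0.61). On the male side they included Chrna7, the alpha7 nicotinic receptor gene (0.435 in females against 1.08 in males).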

How the data were processed

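Poly-A RNA-seq of 38 adBNST libraries was deposited by the authors as 1 table of raw counts per gene, with reads aligned by STAR and counted by featureCounts on mm10, per the submitters' processing notes, which also name DESeq2; versions, annotation and strand setting were not given in the sources used here. The deposited counts are whole numbers with no normalization. Of 25230 genes, edgeR's filterByExpr kept 16309. The quasi-likelihood test (edgeR 4.0.16, R 4.3.3) used TMM factors and 1 mean per group over all 38 libraries, as the series' design text has it, which also shares the estimate of spread. The contrast was male control minus female control, adjusted by Benjamini-Hochberg over all tested genes, with a call at an adjusted p under 0.05. The standard error is the log2 difference divided by the square root of F. CPM uses TMM-scaled totals, and log2 CPM a prior count of 2. Chromosomes came from RefSeq for 24930 genes and GENCODE for 158.

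The named genes were the 5 with the smallest p in each direction, with called ones first, and the panel of 30; some of these genes are left out of the text. The comparison, its lists and the panel were chosen with earlier results of these data known. Lists were described by counts and medians, without a set test. DESeq2 1.42.0, limma 3.58.1 (voom with quality weights) and other normalization, filter, block and library choices were tried as alternatives. The fit was tested on simulated counts. The closest pair of libraries differed by a chi-square of 7.82 per gene, so none was counted as a duplicate. Depth sets a precision for counting error only.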

Additional observations from a re-analysis of the deposited data

Results flagged for a closer look

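Dixon's test was applied to 74 groups of 10 control libraries. Each gene named by the rule and reported here formed a group in each sex. In 2 groups the gap from an extreme library to the next, as a share of the group's range, exceeded the critical value. Gap and range were taken on the log2 scale, while the levels below are given in CPM. Chance alone flags about 1 group in 20. Pgr, the progesterone receptor gene, was at 14.5 CPM in female control library 6, while the other females lay between 25.2 and 36.9 CPM. Fos, the activity-dependent transcription factor gene, was at 6.13 CPM in male control library 9, against 14.9 to 32.5 CPM in the other males. Neither gene was called between the sexes.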

How the results depend on the processing

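Against 2 autosomal genes called higher in males, DESeq2 called 6, voom 10, a term for the number set 5, adjustment over autosomal genes 1, and the fit without the 5 libraries that stood apart 1; within libraries 1 to 5 there was 1 and within libraries 6 and above 0. Against 0 called lower, the counts were 5 with DESeq2, 8 with voom, 1 with the number-set term, 3 without the 5 libraries and 2 within libraries 6 and above. Leaving out each control library gave 1 to 5 higher and 0 to 4 lower. The 5 without female library 10 added Gal, Cyp19a1 and Greb1, and the 4 without female library 6 were Zbtb16, Mertk, Xdh and Plin4. Stressed calls were 7, or 12 with DESeq2 and 12 with voom. The share of genes with the larger spread in females fell from 41.6% to 22.9% without female libraries 1 and 6 and male library 3, and was 44.8% with number-set means removed. The replicate number was not taken as a pairing, because the labels do not give one and 3 of 10 same-number correlations were at most 0.1; the other 7 were over 0.1 (range -0.247 to 0.498), and the library of the other sex that correlated best bore the same number in 1 and 2 of 10 cases. With the replicate block 3 genes were higher and 1 lower, adding Greb1 (adjusted p = 0.0028) and Xdh (0.0156). Of 1216 values of 38 named genes under the alternatives, 1108 kept direction and side of the threshold, and signs turned in 49 values of 12 genes that were not called: with the replicate block Crh (0.019); with voom Sst (0.03) and Adcyap1r1 (0.032); without the 5 libraries Penk (0.009), Nts (-0.011), Kcnq3 (0.032) and Kcnq5 (0.008); without female libraries 7 and 8, chosen after seeing the data, Crh (0.123) and Adcyap1r1 (0.031). Within libraries 1 to 5 they were Esr2 (-0.016), Crh (0.025), Kcnq3 (0.042) and Kcnq5 (0.037), and within libraries 6 and above Fkbp5 (-0.128), Tac1 (-0.155), Nts (-0.028) and Fos (-0.066). Leaving out 1 control library gave -0.103 to 0.112 for Crh, -0.005 to 0.137 for Crhr1, -0.032 to 0.099 for Fkbp5, -0.002 to 0.224 for Tac1, -0.067 to 0.018 for Adcyap1r1, -0.181 to 0.033 for Kcnq3 and -0.025 to 0.236 for Fos. The causes were not tested. Genes with a few counts per library, such as Kiss1, are limited by depth.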
